A study of Homo sapiens with 12 samples.

Results

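Ribosome biogenesis and RNA polymerase I genes were followed in U-2932, a human B cell line from a diffuse large B cell lymphoma, across a stimulation of the B cell receptor and between lines with the wild-type or a mutant form of the RNA-binding protein Roquin2. The genes were 46 listed by name (RNA polymerase I subunits and factors, nucleolar proteins, snoRNP proteins and assembly factors of the small and large ribosomal subunit), taken where the table placed the symbol on chromosomes 1 to 22 or X. Each of the 46 names matched 1 of the 60675 genes in the table, and all 46 were among the 15112 genes that passed the filter on low counts and were tested. Strand-specific RNA-seq of polyA+ RNA was made from 4 groups of 3 libraries, named as independent biological replicates in the series' design. The groups were Y691F with IgM, WT with IgM, Y691F untreated and WT untreated. Y691F cells stably expressed Roquin2 with the Y691F substitution, and WT cells stably expressed wild-type Roquin2, so every group carried an introduced Roquin2 and no group of parental cells was analysed here. Treatment lasted 12 h and used 10 µg/ml of F(ab')2-IgM, an antibody fragment that stimulates B cells through their receptor. The labels do not say whether the cells of either form are 1 clone, and each form has its own stable cells, so the form and other differences between the lines cannot be told apart. P-values measure the spread between these libraries.

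Ribosomes are built in the nucleolus. RNA polymerase I transcribes the ribosomal DNA into a long precursor, small nucleolar RNPs (snoRNPs) guide its chemical modification and cleavage, and assembly factors fold, cut and export the precursors of the small 40S and the large 60S subunit. B cells that receive an antigen signal enlarge their nucleoli as they prepare to grow, and the transcription factor MYC is a known activator of this gene set.

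The library totals ran from 16754981 to 19674442 counts in Y691F with IgM, from 16465393 to 19392749 in WT with IgM, from 18390011 to 20431651 in Y691F untreated and from 16496168 to 21478790 in WT untreated. No library stood apart from its group: IgM and untreated libraries were parted along principal component 1 (78.1% of the variance in log-CPM) and Y691F and WT along component 2 (9.91%). CPM below is a gene's count relative to the TMM-scaled size of its library. RC3H2, which encodes Roquin2, measured 206 ± 1.79 CPM in Y691F with IgM against 121 ± 1.80 CPM in WT with IgM, and 209 ± 0.880 CPM in untreated Y691F against 111 ± 1.08 CPM in untreated WT (mean ± SD, n = 3 libraries, as for all such values below). The amount of RC3H2 mRNA thus differed between the lines together with the form, and gene counts do not show which form was read. All 10 B cell markers examined were detected and tested. They summed to 12599 to 12992 CPM in Y691F with IgM against 17588 to 18144 CPM untreated, and to 11850 to 11996 CPM in WT with IgM against 16166 to 16730 CPM untreated, and 7 of the 10 fell and 3 rose with IgM in each line. Of 12 T and NK cell markers, CD3D, NKG7 and GNLY had no read, and the list summed to 26.0 to 27.6 CPM in Y691F with IgM, 20.1 to 20.7 CPM in WT with IgM, 10.2 to 11.3 CPM in Y691F untreated and 9.50 to 9.94 CPM in WT untreated. The 10 myeloid markers, of which FCGR3A, S100A8, S100A9 and CD163 had no read, summed to less than 2 CPM in any library, and the 11 fibroblast and epithelial markers, with KRT19 and CDH1 at 0, to 20.8 to 26.6 CPM. Most of the latter sum was EPCAM, at 18.9 CPM at the lowest, in WT with IgM, and 23.1 CPM at the highest, in untreated Y691F. COL1A2 was at 0.456 CPM or more in the IgM libraries and at no more than 0.0537 CPM in the untreated ones. DCN went the other way, at no more than 0.36 CPM with IgM and 1.32 CPM or more untreated. The T and NK sum came mostly from TRAC, at 20.7 to 22.1 CPM in Y691F with IgM, 18.8 to 19.5 CPM in WT with IgM, 6.74 to 7.19 CPM in Y691F untreated and 7.82 to 8.38 CPM in WT untreated, while CD4 was at no more than 0.119 CPM in the IgM libraries and at 0.163 CPM or more in the untreated ones. The part of these marker shifts in the changes below was not tested.

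Together the 46 genes took 0.939 ± 0.0212% of all counts in Y691F with IgM and 0.959 ± 0.00795% in WT with IgM, against 0.595 ± 0.00827% in Y691F untreated and 0.628 ± 0.00873% in WT untreated. Every IgM library held a larger share than every untreated library. In these bulk samples, fewer cells expressing a gene and less of its RNA per cell cannot be told apart.

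Levels were compared between genes on the deposited RPKM scale (reads scaled by gene length and library depth). On it, NPM1, the gene of the nucleolar chaperone nucleophosmin, was the highest in all 4 groups, at 334 ± 13.9 RPKM in Y691F with IgM, 329 ± 3.32 in WT with IgM, 155 ± 3.91 in Y691F untreated and 162 ± 5.72 in WT untreated. FBL, the gene of the methyltransferase fibrillarin, came next in each group, at 111 ± 3.27, 122 ± 4.28, 95.04 ± 1.22 and 112 ± 1.11 RPKM in the same order. UTP15, a gene of the complex that first binds the nascent precursor, was the lowest in all 4 groups, at 5.25 ± 0.291 RPKM in Y691F with IgM and 2.60 ± 0.276 RPKM in WT untreated. Both ends of the order were thus held by the same genes in all 4 groups. Next after FBL came NHP2 in the untreated groups and NCL in the IgM groups. Some neighbours lay closer than their spread, as with BOP1 (39.5 ± 1.59 RPKM) and GNL3 (38.9 ± 1.75 RPKM) in untreated WT. The gene lengths that the deposited RPKM imply, taking the table's totals as the depth, ran from 1.86 kb for NHP2 to 16.6 kb for POLR1A. The order depends on these lengths. In CPM the lowest gene was LTV1, with an implied length of 2.27 kb, against 7.77 kb for UTP15.

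**Figure D1:**
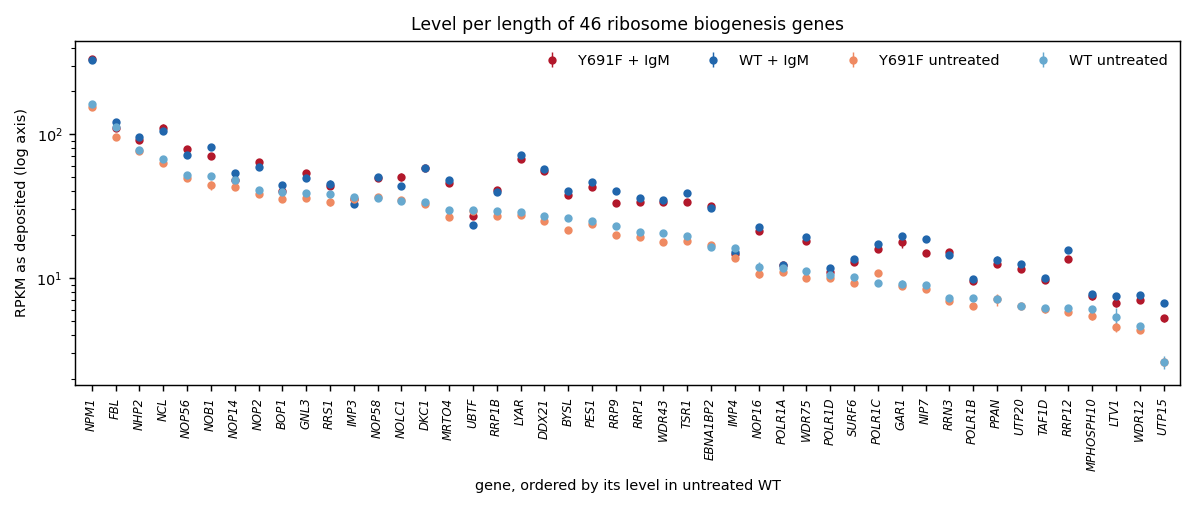
Level of each of the 46 genes as deposited RPKM (log axis), as the mean of 3 libraries with SD in Y691F with IgM, WT with IgM, Y691F untreated and WT untreated. Genes are ordered by their level in untreated WT, and for most of them both IgM means lie above both untreated means, with FBL, NOP14, IMP3, UBTF and IMP4 as the exceptions.

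IgM raised nearly the whole set in both lines. In Y691F, 45 of the 46 genes rose and 0 fell, where 37.1% of all tested genes were called higher, 38.7% lower and 75.8% in either direction (edgeR's quasi-likelihood test, Benjamini-Hochberg adjusted p under 0.05 over all tested genes). In WT, 43 rose and 1 fell, where 38.4% of all tested genes were called higher, 38.5% lower and 76.9% in either direction. The median log2 change of the 46 genes was 0.85 in Y691F and 0.82 in WT, while the median over all tested genes was -0.011 and 0.0016. At least a 2-fold rise was called for 12 of the 46 genes in Y691F and for 15 in WT, against 8.07% and 8.91% of all tested genes. The 3 IgM libraries all lay above the 3 untreated libraries for 45 genes in Y691F and 43 in WT. How many of all tested genes were separated in this way was not counted, here or for the comparisons below. These changes are relative to the TMM scaling: with library totals alone the median over all tested genes lay lower by 0.17 in Y691F and by 0.13 in WT, the members' medians were 0.69 and 0.68, and the share of calls that were higher over all genes in Y691F was 36.9% in place of 48.9%.

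**Figure D2:**
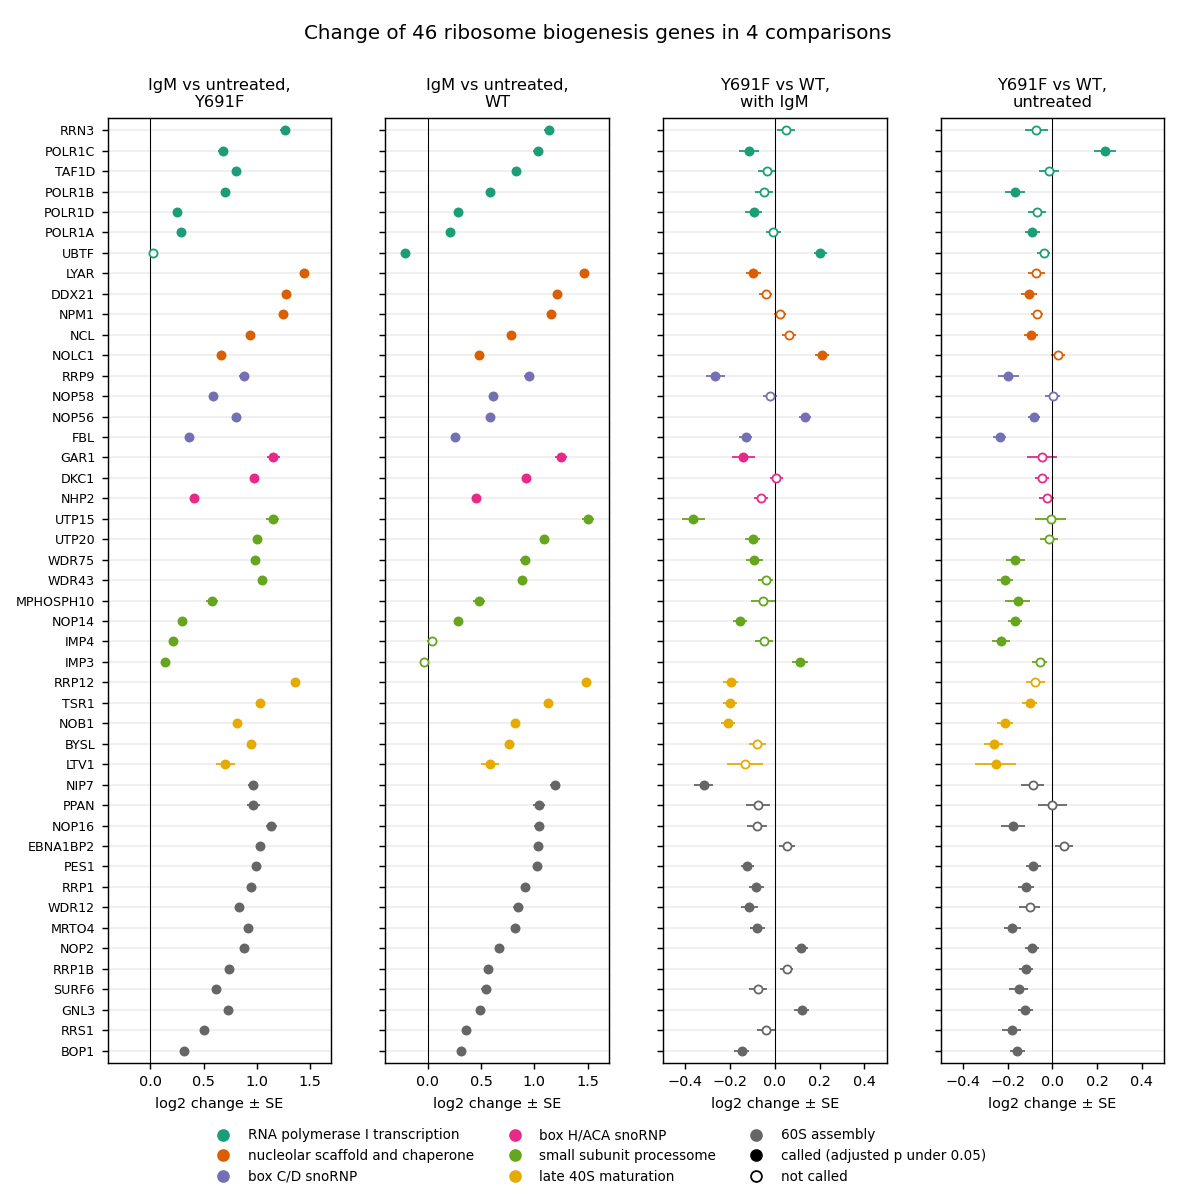
Log2 change with SE of the 46 genes (rows, grouped and coloured by role) for IgM against untreated in Y691F and in WT, and for Y691F against WT with IgM and untreated. Filled points passed an adjusted p under 0.05. Nearly all points lie to the right of 0 in both IgM panels, and most lie to the left of 0 in both panels of Y691F against WT, where the axis is narrower.

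The nucleolar scaffold and chaperone genes rose most, with all 5 called in both lines and medians of 1.25 in Y691F and 1.15 in WT. LYAR, a nucleolar zinc finger protein gene, stood at 204, 194 and 208 CPM in the Y691F libraries with IgM, against 73.0, 74.9 and 74.5 CPM untreated. In WT, LYAR stood at 217, 210.0 and 220.2 CPM with IgM, against 76.4, 80.6 and 76.2 CPM untreated. It rose 2.72-fold in Y691F (log2 1.44, SE 0.036, adjusted p = 5.30e-54) and 2.77-fold in WT (log2 1.47, SE 0.035, adjusted p = 9.12e-55), with no overlap between treated and untreated libraries. NPM1 (ENSG00000181163, chromosome 5, 171387116 to 171411137, plus strand, GRCh38) stood at 1607, 1631 and 1707 CPM with IgM in Y691F, against 668, 699 and 719 CPM untreated. For WT the NPM1 levels were 1639, 1621 and 1606 CPM with IgM, against 710.4, 752 and 726 CPM untreated. NPM1 thus rose 2.37-fold in Y691F (adjusted p = 1.61e-56) and 2.22-fold in WT (adjusted p = 3.84e-54). The table lists 45 NPM1 pseudogenes, and their summed level of 60.5 ± 1.80 CPM in Y691F with IgM and 63.6 ± 1.78 CPM in WT with IgM, against 27.4 ± 2.65 CPM in Y691F untreated and 27.5 ± 2.17 CPM in WT untreated, may hold reads from NPM1. DDX21, an RNA helicase of the nucleolus, stood at 344, 359.7 and 372 CPM with IgM against 141, 149 and 154 CPM untreated in Y691F, and at 369.8, 373 and 363 CPM with IgM against 159, 164 and 153 CPM untreated in WT. Its rises of 1.28 and 1.21 on the log2 scale were close to those of NPM1. Nucleolin, encoded by NCL and the most abundant of these mRNAs after NPM1 in CPM, stood at 953, 955 and 1046 CPM with IgM against 489, 536 and 521 CPM untreated in Y691F, and at 929.9, 957 and 941 CPM with IgM against 531, 564 and 556 CPM untreated in WT. NOLC1, a chaperone of snoRNPs, rose least of the 5 genes, by 0.66 in Y691F and 0.48 in WT.

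The genes of RNA polymerase I transcription did not move as one. RRN3 encodes TIF-IA, which recruits the polymerase to the ribosomal DNA promoter, and it rose most of the 7, by 1.26 in Y691F (adjusted p = 6.95e-42) and 1.14 in WT (adjusted p = 1.49e-38). RRN3 stood at 80.3, 79.2 and 83.1 CPM in Y691F with IgM against 34.5, 33.1 and 33.4 CPM untreated, and at 75.1, 77.9 and 81.2 CPM in WT with IgM against 34.1, 36.1 and 36.1 CPM untreated. Its 3 pseudogenes in the table held 67.4% as many reads as RRN3 itself and summed to 52.2 ± 2.67 CPM in Y691F with IgM and 51.0 ± 0.197 CPM in WT with IgM, against 26.5 ± 1.66 CPM in Y691F untreated and 23.2 ± 0.867 CPM in WT untreated. The sources do not say how reads were divided between RRN3 and these copies, so its level is uncertain. PDXDC1 also overlaps RRN3 on the opposite strand with 192% as many counts, and whether the counting used strand is not stated. PDXDC1 stood at 95.8 ± 2.04 CPM in Y691F with IgM and 90.2 ± 0.949 CPM in WT with IgM. Its untreated levels were 119 ± 3.23 CPM in Y691F and 117 ± 4.69 CPM in WT. The part of PDXDC1 in the RRN3 values was not tested. TAF1D, of the promoter factor SL1, rose by 0.81 and 0.83 in Y691F and WT.

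Of the polymerase subunits, POLR1B, the second largest, rose by 0.70 in Y691F and 0.59 in WT, while POLR1A, the largest and catalytic one, rose by only 0.29 and 0.20. POLR1A stood at 216, 221 and 207 CPM in Y691F with IgM against 180.4, 176 and 172 CPM untreated, and at 209.5, 223 and 215 CPM in WT with IgM against 186, 182 and 195 CPM untreated. POLR1B stood at 74.0, 79.9 and 79.8 CPM in Y691F with IgM against 48.5, 47.5 and 47.3 CPM untreated, and at 79.6, 81.5 and 80.5 CPM in WT with IgM against 55.3, 52.5 and 53.2 CPM untreated. Groups did not overlap for either subunit in either line. With library totals alone, the rise of POLR1A in WT was no longer called (adjusted p = 0.0504, from 2.44e-10 to 0.0504 over the 20 alternatives). POLR1C and POLR1D, which RNA polymerase III also contains, rose by 0.69 and 0.25 in Y691F and by 1.04 and 0.28 in WT.

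UBTF, the gene of the HMG-box protein UBF that keeps ribosomal DNA repeats open, was the exception. In Y691F it stood at 241, 238 and 250.02 CPM with IgM, against 239, 238 and 238 CPM untreated, and no change was called (log2 0.029, SE 0.030, adjusted p = 0.373). In WT it fell to 211, 212 and 209.8 CPM with IgM, against 246, 245 and 243 CPM untreated (log2 -0.21, SE 0.030, adjusted p = 9.84e-10), and the libraries did not overlap. With library totals alone a fall was also called in Y691F (log2 -0.14, adjusted p = 1.04e-05, from 1.04e-05 to 0.833 over the 20 alternatives).

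**Figure D3:**
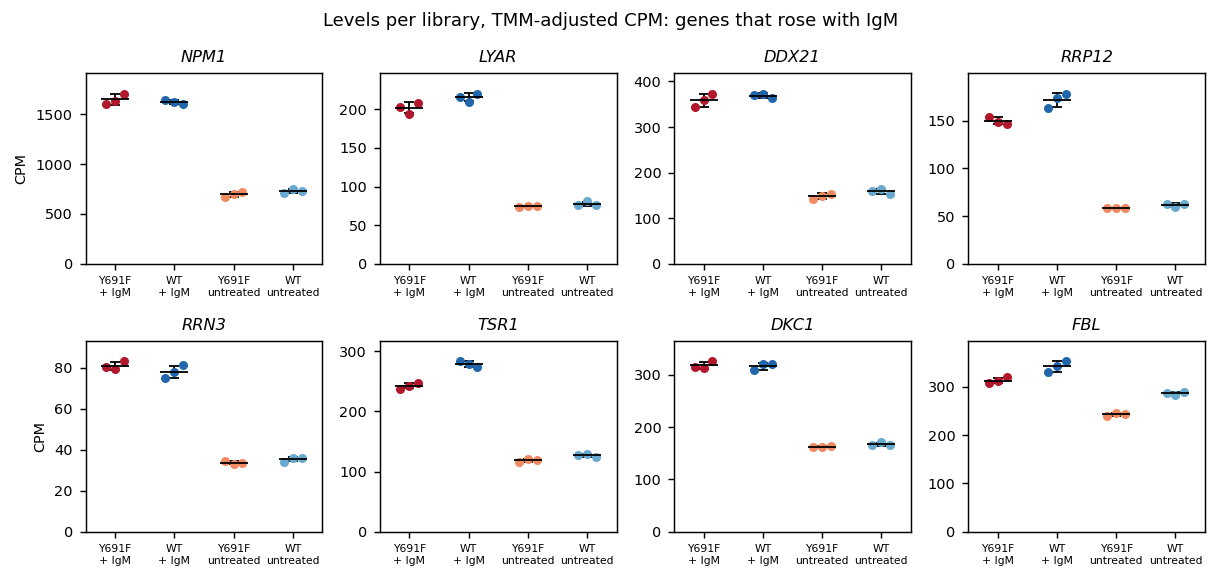
TMM-adjusted CPM of 8 genes that rose with IgM in both lines, for each library (points) with the mean and SD of 3 libraries, in Y691F with IgM, WT with IgM, Y691F untreated and WT untreated. The IgM libraries of each line lie above its untreated libraries for all 8 genes, with the smallest step for FBL.

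Both families of snoRNP proteins rose as a whole, with 4 of 4 box C/D genes and 3 of 3 box H/ACA genes called higher in both lines. FBL, whose product places methyl groups on ribosomal RNA, rose by the least of the C/D genes. It stood at 308, 312 and 319.9 CPM in Y691F with IgM against 240.3, 247 and 243 CPM untreated, and at 331, 344 and 353 CPM in WT with IgM against 288, 284 and 289 CPM untreated (log2 0.36 and 0.26). Its scaffold partners NOP56 and NOP58 rose by 0.80 and 0.59 in Y691F and by 0.58 and 0.61 in WT, and RRP9, which joins only the U3 snoRNP, rose by 0.88 and 0.95. Dyskerin, the pseudouridine synthase encoded by DKC1 (chromosome X, 154762742 to 154777689, plus strand), stood at 315, 313 and 326 CPM in Y691F with IgM against 161, 162 and 163 CPM untreated, and at 308, 321 and 320.2 CPM in WT with IgM against 166, 171 and 166 CPM untreated. DKC1 rose 1.96-fold and 1.89-fold, and its partners GAR1 and NHP2 rose by 1.15 and 0.41 in Y691F and by 1.25 and 0.45 in WT. In both families the mRNAs of a single particle thus had rises of different size.

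Genes of the small subunit processome, the large particle that forms on the nascent precursor, differed widely in size of change. All 8 rose in Y691F and 6 in WT, and 0 fell in either line. UTP15 rose most in this group and, in WT, most of all 46 genes: it stood at 55.3, 56.3 and 53.4 CPM with IgM, against 18.3, 21.5 and 18.0 CPM untreated (log2 1.51, SE 0.058, adjusted p = 1.17e-39). In Y691F it stood at 42.6, 40.9 and 45.0 CPM with IgM, against 18.9, 18.3 and 20.7 CPM untreated (log2 1.15, SE 0.060, adjusted p = 9.69e-31). WDR43 and WDR75, which sit in the same early complex, rose by 1.05 and 0.98 in Y691F and by 0.88 and 0.91 in WT, and the scaffold gene UTP20 rose by 1.005 and 1.09. NOP14 and the 3 genes of the MPP10 complex, which contacts the U3 snoRNA, had the 4 smallest changes of the group in both lines. MPHOSPH10 rose by 0.58 in Y691F and 0.48 in WT, and NOP14 by 0.30 and 0.28. IMP3 and IMP4 had changes of 0.14 and 0.22 in Y691F, both called, and of -0.033 (adjusted p = 0.417) and 0.036 (adjusted p = 0.435) in WT, neither called. With library totals alone IMP3 stood at -0.031 in Y691F (adjusted p = 0.434, from 1.34e-04 to 0.434 over the 20 alternatives), IMP4 was no longer called there (adjusted p = 0.304, from 7.17e-07 to 0.304 over the 20 alternatives), and falls were called in WT for IMP3 and for IMP4 (-0.098, adjusted p = 0.0268, from 0.0268 to 0.917 over the 20 alternatives).

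All 5 genes of late 40S maturation rose in both lines. RRP12, needed for export of both subunits, stood at 154, 148 and 147 CPM in Y691F with IgM against 58.1, 58.9 and 58.2 CPM untreated, and at 164, 174 and 178 CPM in WT with IgM against 62.6, 59.4 and 63.0 CPM untreated. That was a 2.57-fold rise in Y691F (adjusted p = 1.17e-49) and a 2.79-fold rise in WT (adjusted p = 7.67e-53). TSR1, which resembles a GTPase and keeps the immature 40S particle from translating, stood at 238, 243 and 247 CPM in Y691F with IgM against 116, 121 and 119.7 CPM untreated, and at 283, 279 and 274 CPM in WT with IgM against 128, 129 and 124 CPM untreated. NOB1, the endonuclease that makes the final cut of 18S rRNA, rose by 0.82 in Y691F and 0.82 in WT. BYSL rose by 0.94 and 0.76, and LTV1, the lowest of the 46 genes in CPM in every group, by 0.70 and 0.58.

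In 60S assembly all 14 genes rose in both lines, with changes from 0.32 to 1.14 in Y691F and from 0.31 to 1.20 in WT. PES1, BOP1 and WDR12 form the PeBoW complex, which is needed to process the precursor of 28S rRNA. PES1 rose by 0.99 in Y691F and 1.03 in WT and WDR12 by 0.83 and 0.85, while BOP1 had the smallest change of the 14, at 0.32 and 0.31. The largest belonged to NOP16 in Y691F (1.14, with 1.04 in WT, and with HIGD2A on the opposite strand at 176% of its counts) and to NIP7 in WT (1.20, with 0.97 in Y691F). The paralogs RRP1 and RRP1B rose by 0.94 and 0.74 in Y691F and by 0.91 and 0.57 in WT. The assembly factors EBNA1BP2 and PPAN and the P0-like MRTO4 rose by 1.03, 0.97 and 0.92 in Y691F and by 1.03, 1.04 and 0.82 in WT. PPAN overlaps a readthrough gene and P2RY11 on its strand, whose counts came to 69.8% of its own, so its level is uncertain. NOP2, a methyltransferase of 28S rRNA, rose by 0.88 and 0.66. GNL3, the nucleolar GTPase nucleostemin, rose by 0.73 and 0.49, the nucleolar protein gene SURF6 by 0.62 and 0.55, and RRS1, which helps to place the 5S particle, by 0.51 and 0.36.

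Other ribosome biogenesis genes, on 4 lists that share no gene with the 46, mostly moved the same way. Of 41 other small subunit genes, 37 rose and 2 fell with IgM in Y691F, and 38 rose and 3 fell in WT, with medians of 0.68 and 0.74. Of 52 other 60S genes, 49 rose and 0 fell in Y691F, and 51 rose and 0 fell in WT (medians 0.65 and 0.62). The 11 other snoRNP genes counted 10 higher and 1 lower in each line. Of 14 other RNA polymerase I genes, 9 rose and 3 fell in each line, with a median of 0.27 in both. Over all tested genes, 37.1% were called higher and 38.7% lower in Y691F, and 38.4% higher and 38.5% lower in WT. These lists, like the 46 genes, were chosen with earlier results of these data known.

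Between the lines the differences were several times smaller. With IgM, 6 of the 46 genes were higher and 19 lower in Y691F than in WT, where 21.9% of all tested genes were called higher, 20.2% lower and 42.1% in either direction. The median was -0.076, against -0.0049 over all tested genes, and no gene differed by more than 1.29-fold. The size of the members' differences had a median of 0.093, against 0.19 over all tested genes. The number called lower rested on small differences: it was 10 by the DESeq2 Wald test, 11 with no filter on low counts, and 12 without replicate 1 of Y691F with IgM or without replicate 2 of WT with IgM, when the median was -0.047 without the first of these.

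The 5 lower genes with the smallest adjusted p came from 60S assembly, the processome, late 40S maturation and the U3 snoRNP. NIP7 stood at 62.5, 66.4 and 60.7 CPM in Y691F, against 78.5, 77.7 and 80.6 CPM in WT (log2 -0.32, SE 0.043, adjusted p = 1.09e-09). UTP15 stood at 42.6, 40.9 and 45.0 CPM in Y691F, against 55.3, 56.3 and 53.4 CPM in WT (log2 -0.36, SE 0.052, adjusted p = 6.83e-09). For both genes the Y691F libraries all lay below the WT libraries. TSR1 reached 238, 243 and 247 CPM in Y691F, against 283, 279 and 274 CPM in WT (log2 -0.20, SE 0.030, adjusted p = 3.47e-08). RRP9 stood at 66.9, 70.6 and 66.3 CPM in Y691F, against 80.5, 82.1 and 82.7 CPM in WT (log2 -0.27, SE 0.042, adjusted p = 8.97e-08). NOB1 was at 191, 193 and 195 CPM in Y691F, against 223, 225 and 221 CPM in WT (log2 -0.21, SE 0.033, adjusted p = 1.13e-07). These 3 genes were also separated, and RRP12 (-0.20), NOP14 (-0.15), BOP1 (-0.15), FBL (-0.13) and PES1 (-0.12) were lower too. The remaining 9 lower genes, from GAR1 (-0.14) to MRTO4 (-0.078), lost their call under at least 1 of the 20 alternatives tried. They were GAR1, POLR1C, WDR12, UTP20, LYAR, POLR1D, WDR75, RRP1 and MRTO4. Without replicate 1 of Y691F with IgM, GAR1 stood at -0.057, RRP1 at -0.054 and MRTO4 at -0.047, and without replicate 2, LYAR stood at -0.055 and WDR75 at -0.048. Without replicate 2 of WT with IgM, UTP20 stood at -0.062, and without replicate 3, RRP1 stood at -0.051.

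All 6 genes that were higher in Y691F with IgM had separated libraries. NOLC1 stood at 254, 249 and 274 CPM in Y691F, against 221, 225 and 224 CPM in WT (log2 0.21, SE 0.031, adjusted p = 1.99e-08). UBTF stood at 241, 238 and 250.02 CPM in Y691F, against 211, 212 and 209.8 CPM in WT (log2 0.20, SE 0.030, adjusted p = 2.05e-08). The differences of NOP56, NOP2, GNL3 and IMP3 (0.11) were smaller. NOP56 was at 535, 544 and 558 CPM in Y691F, against 495, 493 and 501 CPM in WT (log2 0.14, SE 0.028, adjusted p = 2.33e-05). For NOP2 the levels were 384, 381 and 392 CPM in Y691F, against 353, 362 and 351 CPM in WT (log2 0.12, SE 0.029, adjusted p = 4.46e-04). GNL3 had 228, 226 and 241 CPM in Y691F, against 217, 212 and 210.2 CPM in WT (log2 0.12, SE 0.032, adjusted p = 0.00134). The group thus held scaffold, snoRNP, 60S and polymerase I genes, without a single role in common. No difference was called for NPM1 (0.023, SE 0.028), DDX21 (-0.041, SE 0.030) or DKC1 (0.0071, SE 0.029), which rose strongly with IgM in both lines.

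In untreated cells, 1 of the 46 genes was higher and 26 lower in Y691F than in WT, where 15.1% of all tested genes were called higher, 16.1% lower and 31.2% in either direction. The median difference was -0.094, against -0.0078 over all tested genes. By role, 10 of 14 60S genes, 4 of 5 late 40S genes, 5 of 8 processome genes and 3 of 4 box C/D genes were lower, and 0 of 3 box H/ACA genes. FBL stood at 240.3, 247 and 243 CPM in Y691F, against 288, 284 and 289 CPM in WT (log2 -0.24, SE 0.029, adjusted p = 1.47e-10). BYSL, whose product bystin joins the early 40S particle, stood at 55.2, 59.9 and 56.7 CPM in Y691F, against 68.0, 68.3 and 69.5 CPM in WT (log2 -0.26, SE 0.042, adjusted p = 3.25e-07). NOB1 stood at 105, 118 and 105 CPM in Y691F, against 130.4, 126 and 124 CPM in WT (log2 -0.21, SE 0.036, adjusted p = 8.87e-07). In each of these 3 genes every Y691F library was below every WT library. WDR43 was at 85.2, 85.2 and 89.5 CPM in Y691F, against 98.6, 103 and 99.3 CPM in WT (log2 -0.21, SE 0.037, adjusted p = 2.56e-06), and IMP4 at 61.9, 60.6 and 65.3 CPM in Y691F, against 75.2, 74.1 and 70.7 CPM in WT (log2 -0.23, SE 0.041, adjusted p = 3.62e-06), again without overlap. The other lower genes, among them RRP9 (-0.20), MRTO4 (-0.18), RRS1 (-0.18), NOP16 (-0.18), NOP14 (-0.17), POLR1B (-0.17), BOP1 (-0.16) and SURF6 (-0.15), were at most 1.19-fold lower, the value of LTV1 (-0.25). Without replicate 2 of untreated WT, LTV1 stood at -0.12 (adjusted p = 0.426, from 0.00335 to 0.426 over the 20 alternatives) and NOP16 at -0.11, and without replicate 1 of untreated Y691F, NCL stood at -0.057, DDX21 at -0.069 and MPHOSPH10 at -0.091. The calls of GNL3, SURF6, NOP16, DDX21, TSR1, NOP2, NCL, NOP56, POLR1A, MPHOSPH10, LTV1 and PES1 were each absent under at least 1 of 20 alternatives. Without replicate 1 of untreated Y691F the count of lower genes was 16.

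The 1 gene that was higher in untreated Y691F was POLR1C (chromosome 6, 43509702 to 43529585, plus strand), at 36.8, 36.7 and 36.7 CPM, against 30.5, 32.2 and 30.9 CPM in WT (log2 0.23, SE 0.051, adjusted p = 1.15e-04). With IgM it was lower instead, at 59.4, 60.6 and 57.0 CPM in Y691F, against 63.9, 64.0 and 64.0 CPM in WT (log2 -0.12, SE 0.044, adjusted p = 0.0272), a call absent under 7 of 20 alternatives (adjusted p from 0.011 to 0.167 over the 20 alternatives). XPO5 overlaps POLR1C on the opposite strand with 412% as many counts and stood at 149.6 ± 3.82 CPM in Y691F with IgM, 164 ± 6.92 in WT with IgM, 125 ± 3.01 in untreated Y691F and 126 ± 4.38 in untreated WT; its part in the POLR1C values was not tested. Both comparisons of the lines use separate libraries, and 10 genes were called lower in both, 52.6% of the 19 lower with IgM and 38.5% of the 26 lower untreated. The same overlap was not counted over all tested genes, so these shares do not show whether the set stands apart. Across the 46 genes the line differences with IgM and untreated had a Pearson correlation of 0.193 (Spearman 0.250). The Pearson correlation was 0.471 over all 15112 tested genes. The sign was the same for 34 of the 46 genes, and for 62.8% of all tested genes. With IgM the members' differences ran from -0.36 to 0.21, against -6.59 to 7.35 over all tested genes, so the correlations cover unlike ranges. All of these are descriptions, since genes share libraries. NOP56, NOP2 and GNL3 were lower in untreated Y691F and higher in Y691F with IgM. NHP2, EBNA1BP2, PPAN, RRN3, TAF1D, NPM1, NOP58 and DKC1 were called in neither.

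The other ribosome biogenesis genes also leaned lower in Y691F. With IgM, 21 of 41 other small subunit genes were lower and 4 higher, 31 of 52 other 60S genes were lower and 2 higher, 6 of 11 other snoRNP genes were lower and 0 higher, and 6 of 14 other RNA polymerase I genes were lower and 1 higher. Untreated, the counts were 14 lower and 0 higher, 24 lower and 2 higher, 6 lower and 0 higher, and 6 lower and 1 higher for the same 4 lists. Their medians lay between -0.11 and -0.073 with IgM, and between -0.11 and -0.055 untreated. Among all tested genes, 20.2% were called lower and 21.9% higher with IgM, and 16.1% lower and 15.1% higher untreated.

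Whether the IgM response itself differed between the lines was tested as the interaction, the log2 change with IgM in Y691F minus that in WT. It was called higher for 12 of the 46 genes and lower for 3, where 14.7% of all tested genes were called higher, 11% lower and 25.7% in either direction, and the median was 0.069, against 0.0069 over all tested genes. Without replicate 1 of untreated Y691F the median was 0.037, and without replicate 2 of untreated WT it was 0.039. With library totals alone, 5 genes were called lower and the median was 0.034, and the share of higher calls over all tested genes was 46.4% in place of 57.1%. Across the 46 genes both IgM responses, which come from separate libraries, had a Pearson correlation of 0.945 and a Spearman correlation of 0.934 (n = 46 genes, a description, since the genes share libraries and scaling within each line). Over all 15112 tested genes the Pearson correlation was 0.910. Of 41 other small subunit genes the interaction was called higher for 5 and lower for 7 (median -0.021). For 52 other 60S genes the counts were 4 higher and 5 lower (median -0.023). Of 11 other snoRNP genes 2 were higher and 0 lower, and of 14 other RNA polymerase I genes 2 were higher and 1 lower (medians 0.0077 and -0.011). The lean of the 46 genes to higher calls was thus not seen on the small subunit and 60S lists.

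**Figure D4:**
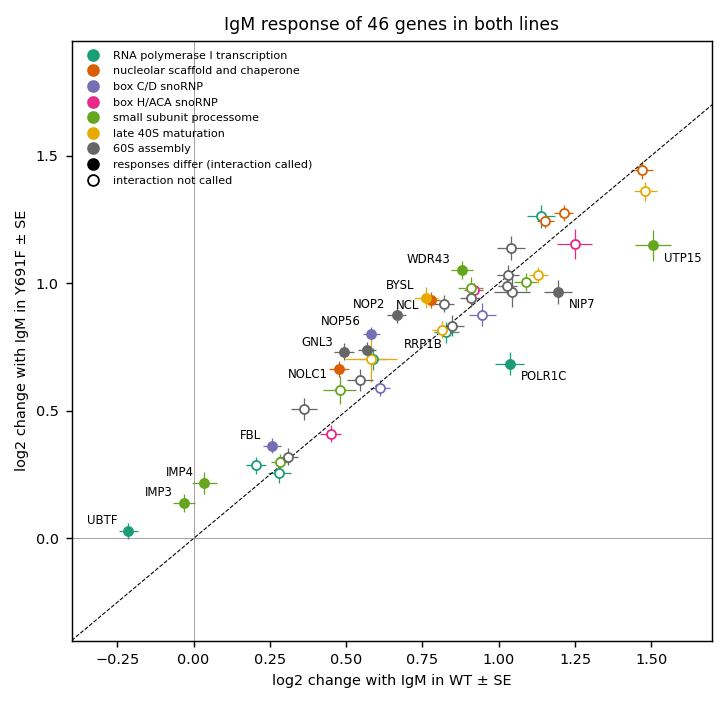
Log2 change with IgM in Y691F (vertical) against that in WT (horizontal) for the 46 genes, with SE bars, coloured by role. The dashed line marks equal responses, and filled, named points are the 15 genes whose responses differed, 12 above the line and 3 below it.

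The largest positive interaction was that of UBTF (log2 0.24, SE 0.042, adjusted p = 2.43e-06): its IgM change was 0.029 in Y691F and -0.21 in WT. GNL3 followed (log2 0.24, SE 0.046, adjusted p = 2.13e-05), with rises of 0.73 in Y691F and 0.49 in WT. NOP56 (log2 0.22, SE 0.040, adjusted p = 5.76e-06) and NOP2 (log2 0.21, SE 0.042, adjusted p = 3.68e-05) had rises larger by about the same amount. These genes all responded to IgM more, or fell less, in Y691F. NOLC1 (0.19), BYSL (0.18), IMP4 (0.18), WDR43 (0.17), IMP3 (0.17), RRP1B (0.17), NCL (0.16) and FBL (0.11) were the other 8. The call for IMP4 was absent with library totals alone (adjusted p = 0.057, from 0.00464 to 0.057 over the 19 alternatives). That for BYSL was absent without replicate 1 of untreated Y691F (adjusted p = 0.0506, from 0.00242 to 0.0506 over the 19 alternatives). The call for FBL (adjusted p = 0.046) was absent under 11 of 19 alternatives (adjusted p from 0.0215 to 0.194 over the 19 alternatives). BYSL (-0.26), IMP4 (-0.23), WDR43 (-0.21), RRP1B (-0.12) and NCL (-0.096) were called lower in untreated Y691F than in WT, and not called with IgM. For UBTF, NOLC1 and IMP3 the lines differed by a call with IgM only, and for NOP56, NOP2, GNL3 and FBL in both comparisons.

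The 3 genes with a smaller rise in Y691F were UTP15 (log2 -0.36, SE 0.086, adjusted p = 6.65e-04), POLR1C (log2 -0.35, SE 0.067, adjusted p = 1.90e-05) and NIP7 (log2 -0.23, SE 0.067, adjusted p = 0.00617). For UTP15 the untreated levels were 19.3 ± 1.24 CPM in Y691F and 19.3 ± 1.98 CPM in WT, so the difference lay in the IgM libraries. For POLR1C it lay on both sides, with a higher untreated level and a lower IgM level in Y691F. NIP7 stood at 32.4 ± 0.299 CPM in untreated Y691F and 34.5 ± 1.39 CPM in untreated WT, a difference that was not called (adjusted p = 0.198). COG8 overlaps NIP7 on the opposite strand with 87.8% as many counts, and PBRM1 overlaps GNL3 with 76.3%, so these levels carry the same doubt as that of POLR1C. The same holds for NOP16 (HIGD2A, 176%), TAF1D (CEP295, 91.9%), MRTO4 (EMC1, 54.7%), TSR1 (SGSM2, 40.3%) and NHP2 (RMND5B, 37.7%).

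**Figure D5:**
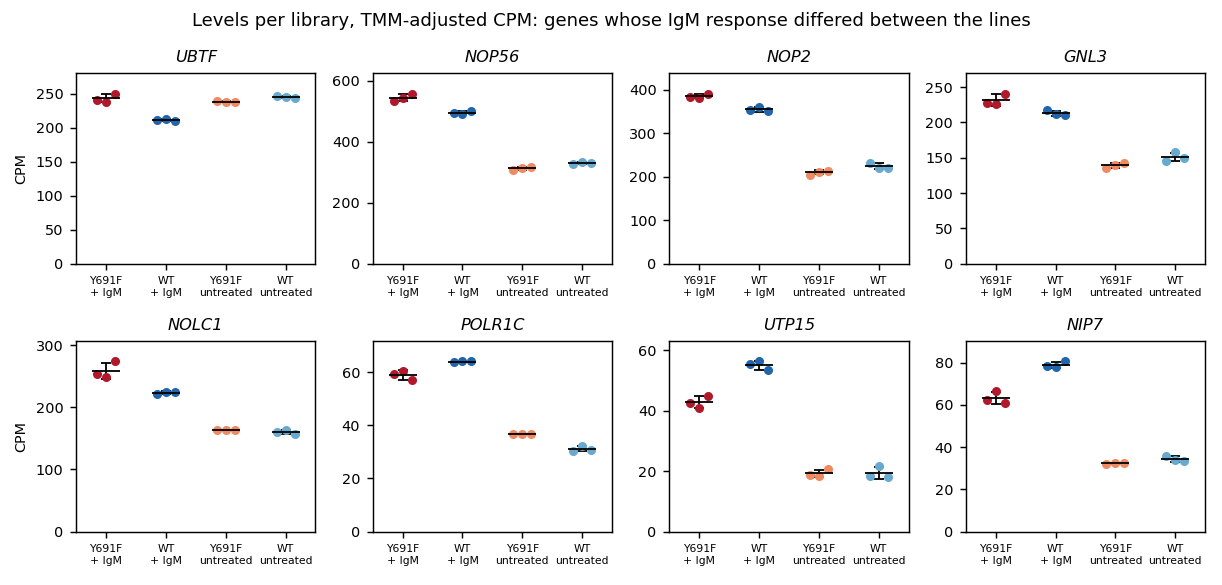
TMM-adjusted CPM of 8 genes whose IgM response differed between the lines, for each library (points) with the mean and SD of 3 libraries, in Y691F with IgM, WT with IgM, Y691F untreated and WT untreated. UBTF, NOP56, NOP2, GNL3 and NOLC1 are higher in Y691F than in WT with IgM, and POLR1C, UTP15 and NIP7 are lower.

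The promoters of these genes were read because the genes moved together with IgM. RefSeq windows (GRCh38.p14) of 300 bases, from 250 before the annotated start to 50 after it, were matched by symbol for 39 of the 46 genes, and NOLC1, NOP58, MPHOSPH10, RRP12, BOP1, RRP1B and RRS1 had no entry. The letters CACGTG, the canonical E-box bound by MYC with MAX, occurred on either strand in 13 of the 39 windows (33.3%), compared with 982 of 9388 windows of tested genes (10.5%) and 2540 of 34961 windows in all (7.27%). In 11 of the 13 genes an E-box began within 50 bases of the start (28.2% of the 39), against 393 of the 9388 tested genes (4.19%). The 11 were FBL, RRP9, WDR43, UTP20, NOP14, IMP4, BYSL, LTV1, PES1, NOP2 and MRTO4. The start used matched the RefSeq gene start for 34 of the 39 genes. Where a gene had more than 1 window, the first listed was read, so distances hold for that start only. A match is a description of the letters and not a binding site.

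Of those E-boxes, 5 are printed to show how close to the start they lie, with the windows of LYAR and UTP15, which rose most in the scaffold and processome groups and hold none, beside them. Each run gives 75 bases before the start and 25 from it on, 5′ to 3′ on the gene's strand, with CACGTG in capitals.
FBL, chr19:39846355-39846454, minus strand: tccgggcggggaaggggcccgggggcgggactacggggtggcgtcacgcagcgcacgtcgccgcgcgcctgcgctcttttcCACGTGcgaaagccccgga
RRP9, chr3:51941880-51941979, minus strand: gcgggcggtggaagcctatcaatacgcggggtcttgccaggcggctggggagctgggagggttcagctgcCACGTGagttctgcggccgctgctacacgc
WDR43, chr2:28894592-28894691, plus strand: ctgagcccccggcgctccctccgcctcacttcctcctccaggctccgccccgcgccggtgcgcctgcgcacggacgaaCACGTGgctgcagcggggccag
UTP20, chr12:101280030-101280129, plus strand: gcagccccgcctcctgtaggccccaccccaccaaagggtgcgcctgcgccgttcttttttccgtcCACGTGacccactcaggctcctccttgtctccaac
IMP4, chr2:130342822-130342921, plus strand: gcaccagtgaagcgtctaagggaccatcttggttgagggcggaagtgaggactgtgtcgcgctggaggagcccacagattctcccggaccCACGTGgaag
LYAR, chr4:4290130-4290229, minus strand: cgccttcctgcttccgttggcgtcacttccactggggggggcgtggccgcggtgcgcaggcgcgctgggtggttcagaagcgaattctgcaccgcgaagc
UTP15, chr5:73565668-73565767, plus strand: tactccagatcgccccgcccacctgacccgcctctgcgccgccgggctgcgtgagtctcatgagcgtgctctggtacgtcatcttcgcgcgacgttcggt

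With IgM, the 13 genes that hold one had a median log2 change of 0.88 in Y691F and 0.76 in WT, and the 26 without one had 0.94 and 0.91. Among genes with an E-box near the start, changes ran from those of IMP4 (0.22 in Y691F and 0.036 in WT) to those of UTP20 (1.005 and 1.09), WDR43 (1.05 and 0.88) and PES1 (0.99 and 1.03). MYC mRNA stood at 15.2 ± 1.11 CPM in Y691F with IgM and 19.0 ± 1.01 CPM in WT with IgM, against 19.0 ± 1.31 CPM in Y691F untreated and 12.1 ± 0.521 CPM in WT untreated. It was lower with IgM in Y691F (log2 -0.31, adjusted p = 1.05e-04) and higher with IgM in WT (log2 0.66, adjusted p = 3.56e-12) at the 1 time measured. The MYC protein was not measured, and the part of MYC in the members' changes was not tested. Among other motifs searched on both strands, the ETS-type letters CCGGAAG occurred in 13 of the 39 windows (33.3%, against 20.2% of tested genes) and the GC box GGGCGG in 28 (71.8%, against 69.7%). The AP-1 letters TGANTCA occurred in 0 (4.39% of tested genes), the CRE letters TGACGTCA in 1 (2.56%, against 3.29%), the NRF1-type letters GCATGCGC in 2 (5.13%, against 5.74%) and TATAAA in 2 (5.13%, against 5.44%). The letters of none of the 7 motifs contain those of another, and the median GC content of the windows was 64% for the 39 genes and 65% for tested genes.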

How the data were processed

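Strand-specific polyA+ RNA-seq was analysed in 12 libraries, 3 in each of 4 groups taken from the sample labels. The authors deposited 1 table that holds raw read counts per gene and, in columns beside them, RPKM values, which are scaled by gene length and library depth. Per the submitters' processing notes, STAR 2.5.0b, DESeq2 and the build GRCh38 were used; the counting program, its strand setting and its treatment of reads with several matches are not named in those notes. The replicate number of each column was matched to the sample titles.

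The deposited counts were tested in R 4.3.3 with edgeR 4.0.16 (TMM scaling, filterByExpr, robust quasi-likelihood fit with 1 coefficient per group, 12 libraries together). Benjamini-Hochberg adjustment ran over all 15112 genes tested of 60675 in the table, with calls made where the adjusted p was under 0.05. Every p-value printed comes from this fit unless another setting is named. Each SE was obtained as the absolute log2 change over the square root of F. The deposited RPKM values were used only to compare levels between genes. Replicates differed by more than counting noise, and none were identical. The edgeR step was tested on simulated data.

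Each of the 46 genes is accounted for. Values per library are given for the 5 genes with the smallest adjusted p in each direction and comparison among those called, and for POLR1A, POLR1B, UBTF, RRN3, FBL, DKC1, NPM1 and NCL. Genes with overlapping reads, and the promoters printed, were chosen after values were seen. The 46 genes and the other lists were chosen with earlier results of these data known. Alternatives were DESeq2 size factors, library totals alone, keeping every gene with a count, requiring 5 CPM in 3 libraries, the Wald test of DESeq2 1.42.0, limma-voom (limma 3.58.1), a fit of only the libraries compared, the replicate number as a block, and leaving out each library in turn. Promoter windows came from RefSeq, and figures were drawn with matplotlib 3.10.9.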

Additional observations from a re-analysis of the deposited data

Results flagged for a closer look

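The IgM response differed between the lines for 15 of the 46 genes by the interaction test (edgeR's quasi-likelihood test, adjusted p under 0.05), and each value below is the log2 change with IgM in Y691F minus that in WT. It was positive for UBTF (0.24), GNL3 (0.24), NOP56 (0.22), NOP2 (0.21), NOLC1 (0.19), BYSL (0.18), IMP4 (0.18), WDR43 (0.17), IMP3 (0.17), RRP1B (0.17), NCL (0.16) and FBL (0.11). It was negative for UTP15 (-0.36), POLR1C (-0.35) and NIP7 (-0.23). The call was absent under 11 of 19 alternatives for FBL (adjusted p from 0.0215 to 0.194 over the 19 alternatives) and under 1 of 19 each for IMP4 and BYSL. Over all tested genes the same test called 25.7%.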

How the results depend on the processing

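For IgM against untreated, 43 of 45 calls in Y691F and 43 of 44 in WT held in every alternative. For Y691F against WT, 16 of 25 calls with IgM and 15 of 27 untreated held in every alternative, and so did 12 of 15 interactions. The cause was not tested where values moved. With library totals alone, 1 gene was called lower with IgM in Y691F (members' median 0.69) and 3 in WT (median 0.68), 5 interactions were called lower (median 0.034), and UBTF (-0.14) and IMP3 (-0.031) in Y691F and IMP4 (-0.098) in WT turned direction. With 5 CPM in 3 libraries, the members' medians were 0.80 for IgM in Y691F, 0.78 for IgM in WT (2 called lower) and -0.073 for untreated Y691F against WT. For Y691F against WT with IgM, genes called lower numbered 11 with no filter and 10 by the DESeq2 Wald test, and between 12 and 19 with 1 library left out, with medians from -0.077 to -0.047. Untreated, they numbered 16 to 25 with 1 library left out. Replicate numbers did not pair the libraries: same-numbered deviations correlated from -0.062 to 0.030, and 3 of 12 libraries correlated best with their own number. With the replicate block, 6 genes were called higher and 19 lower with IgM, 1 higher and 26 lower untreated, and all 230 member results kept their side of the threshold. LTV1, the lowest member in CPM, had the largest SE of the members for Y691F against WT, at 0.082 with IgM and 0.092 untreated. The part of library depth in these SEs was not tested.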
